A study of Homo sapiens with 8 samples.

Results

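Transcripts of the solute carrier superfamily were followed across the RNAs recovered with the RNA-binding protein QKI7 from HepG2 cells. The genes were taken by name: every gene called SLC or SLCO followed by a digit, in any of 4 deposited peak lists. There were 116 such genes among the 6520 genes named in the lists, and they held 738 of 42083 peaks. RefSeq matched all 116. It now calls SLC22A18 by the symbol SLC67A1, and SLC9A3R2 by the symbol NHERF2, a scaffold protein and not a transporter.

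HepG2 is a human liver cancer cell line. All cells carried Cas9 and a lentiviral 3 x Flag-QKI7 transgene. The knockout group then received sgMETTL1, a guide against METTL1, and the control group received sgNS. Cells positive for GFP were kept and expanded, cross-linked with UV and sonicated, and RNA was recovered with an antibody to Flag. Each guide had 2 input and 2 immunoprecipitated (IP) samples, and each list holds the peaks of 1 IP and input pair, so that 2 lists stood against 2. Every value therefore concerns tagged, overexpressed QKI7 and not the cells' own protein, and the labels do not say whether the knockout cells were a clone or a pool. They also do not say whether replicates were separate cultures, and p-values reflect the spread among these samples alone, which could be technical. An exact permutation test of 2 lists against 2 cannot go below p = 0.333 (two-sided).

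Solute carriers are membrane proteins that move small molecules across the plasma membrane and the membranes of mitochondria, Golgi, endosomes and lysosomes. They work as uniporters, symporters or exchangers, without hydrolysing ATP, and are sorted into families that largely follow the substrate. In liver they take up amino acids, sugars, bile salts and drugs, and they handle iron and zinc. QKI7 is a splice form of Quaking, a STAR-family protein that binds RNA. METTL1, with WDR4, places 7-methylguanosine on RNA.

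The lists held 10095 and 9388 peaks with sgMETTL1, and 11562 and 11038 with sgNS. The authors' median -log10 p of a peak was 7.42 and 7.98 with sgMETTL1, against 10.8 and 10.8 with sgNS. Read counts were not used here, and the depth of a list is unknown. METTL1 and WDR4 had no peak in any list, which leaves the knockout unchecked. QKI was listed in all 4, with strongest folds of 109 and 107 with sgMETTL1, against 78.0 and 68.0 with sgNS. Of the 6 HepG2 markers looked up, APOB and HNF4A were in all 4 lists, ALB was in 1 sgNS list, and AFP, APOA1 and TTR were in none. A peak is an enrichment over input and not a level of the RNA, so a marker that is not listed is not shown to be absent. Of the blood cell markers LYZ was in all 4 lists, HBB in 1 sgNS list and PTPRC in none, and no fibroblast marker was listed.

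The first question was which solute carrier transcripts were recovered, and how repeatably. The lists named 85 and 85 solute carrier genes with sgMETTL1, against 101 and 93 with sgNS. In all 4 lists stood 66 of the 116 (56.9%, against 63.7% of all listed genes). Another 20 were in 3 lists, 10 in 2 and 20 in only 1. Both sgMETTL1 lists named 70 of them (60.3%, against 67.5% of all listed genes), and both sgNS lists named 88 (75.9%, against 76.3%). RefSeq names 398 protein-coding genes SLC or SLCO, and 124 of these were listed under that or an older name (31.2%, against 32.3% of the 20052 protein-coding genes). The share of the superfamily with a peak was thus close to that of protein-coding genes as a whole. For comparison, 6 of 13 listed ABC transporters and 10 of 20 listed ion-pumping ATPases were in all 4 lists.

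Each gene was described by the strongest fold of its peaks in a list, where the fold is the authors' ratio of IP over input. Since no scaling between the lists is stated, folds were ranked within a list, with a percentile of 0 for the strongest gene. The median percentile of the solute carriers was 52.5 and 56.3 with sgMETTL1, against 56.5 and 61.3 with sgNS. The strongest 10% of genes in a list held 6 and 5 of them with sgMETTL1 (7.06 and 5.88% of those listed), and 6 and 6 with sgNS (5.94 and 6.45%). A strongest fold of at least 10 in every list was seen for 14 of the 66 genes, and a fold under 5 in every list for 13. Neither count was made for all genes, so no comparison with them is drawn. The weaker 50% of the genes in a list held 51.8 and 54.1% of the listed solute carriers with sgMETTL1, and 58.4 and 61.3% with sgNS. The members are described below by what they carry.

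Carriers of metals held the strongest gene. SLC11A2, which brings ferrous iron and other divalent metals across membranes with protons, was listed at 193- and 99.9-fold with sgMETTL1, against 166- and 152-fold with sgNS. It ranked first among the 66 genes, and the ranges of the guides overlapped. Its lowest value, in replicate 2 of sgMETTL1, was not far above the 87.0-fold of SLC6A6 in the same list. All of its peaks formed 1 site, which runs from 50979783 to 50981426 on chromosome 12 (GRCh38, minus strand). This site lay 62.9% of the way through the gene, 27520 bases before the RefSeq 3' end. SLC11A2 is known for transcripts with alternative last exons, and which transcript the site belongs to was not analysed here. SLC39A6, a zinc importer, was listed at 43.8- and 42.6-fold with sgMETTL1, against 50.8- and 44-fold with sgNS, over a site on chromosome 18 that reached the 3' end of the gene (36108531 to 36111070). Its 4 values were close together. Both sgMETTL1 folds lay below both sgNS folds, but the ranks within the lists overlapped. SLC39A9, another zinc transporter, was listed at 9.35- and 9.72-fold with sgMETTL1, against 14.4- and 12.1-fold with sgNS. SLC40A1, the iron exporter ferroportin, was listed at 5.51- and 7.63-fold with sgMETTL1, against 12.3- and 10.3-fold with sgNS. The guides did not overlap at either gene in fold, nor in rank among the genes of all 4 lists. Among all genes of all 4 lists, both sgMETTL1 ranks were weaker than both sgNS ranks for 22.7%, and stronger for 20.0%. SLC41A2, a magnesium transporter, was listed at 9.94- and 6.13-fold with sgMETTL1, against 14.4- and 10.3-fold with sgNS. In this class 10 of 13 genes were in all 4 lists.

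Carriers of amino acids, peptides and neurotransmitters were the largest class, and 17 of 26 were in all 4 lists. SLC38A2, a sodium-coupled carrier of small neutral amino acids, was listed at 37.4- and 30.0-fold with sgMETTL1, against 46.9- and 38.6-fold with sgNS. Both sgMETTL1 folds were below both sgNS folds, and both ranks were weaker too, as at 22.7% of all genes of all 4 lists. Its main peak covered the last bases of the gene on chromosome 12 (46358188 to 46359027). By the authors' p it stood first among the solute carriers in every list, with a -log10 p of 7330 and 7560 with sgMETTL1, against 21500 and 18700 with sgNS. SLC38A1, its paralog for glutamine, was listed at 16.7- and 10.6-fold with sgMETTL1, against 14.5- and 13-fold with sgNS. SLC6A6, the taurine transporter, was listed at 38.3- and 87.0-fold with sgMETTL1, against 26.8- and 34.4-fold with sgNS. Both of its sgMETTL1 values were above both sgNS values, but the sgMETTL1 replicates differed more from each other than the lower one did from sgNS. The last site of SLC6A6 shares its place in all 4 lists with a peak of GRIP2 on the opposite strand, so that reads there cannot be assigned to either gene unless they were counted by strand, which the sources used here do not state. SLC36A4, an amino acid carrier, was listed at 14.2- and 13.9-fold with sgMETTL1, against 18.2- and 16.2-fold with sgNS. The folds of the guides did not overlap at this gene. Nor did its percentiles within the lists, 27.9 and 27.6 with sgMETTL1, against 23.7 and 25.5 with sgNS. In the ranking among genes of all 4 lists alone, used for the test below, the guides overlapped.

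The other carriers for amino acids with known roles in growth stood lower in fold, though some had very small p. SLC7A5, the exchanger of large neutral amino acids, was listed at 5.31- and 6.60-fold with sgMETTL1, against 11.1- and 10.0-fold with sgNS. In -log10 p it reached 519 and 666 with sgMETTL1, against 1320 and 1460 with sgNS. The main site of SLC7A5 was 1 peak in each sgNS list, and was listed as 3 and 4 separate peaks with sgMETTL1. SLC7A1, a carrier of cationic amino acids, was listed at 12.6- and 9.34-fold with sgMETTL1, against 12.8- and 10.1-fold with sgNS. SLC7A11, the cystine and glutamate exchanger, was listed at 3.24- and 3.28-fold with sgMETTL1, against 4.87- and 3.69-fold with sgNS. Ranked by the mean percentile of p in place of fold, the leading solute carriers after SLC38A2 were SLC44A1, SLC38A1, SLC7A5 and SLC39A6.

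Among carriers of vitamins, nucleosides and lipids, 6 of 8 genes were in all 4 lists. SLC44A1, a choline transporter, was listed at 30.5- and 47.2-fold with sgMETTL1, against 39.5- and 37.2-fold with sgNS. Its main site lay 45532 bases before the RefSeq 3' end on chromosome 9 (105385485 to 105392972), and the sgMETTL1 values fell on either side of those with sgNS. SLC23A2, which takes up vitamin C, was listed at 24.5- and 29.1-fold with sgMETTL1, against 24.8- and 22.3-fold with sgNS. SLC46A1, the proton-coupled folate transporter, was listed at 6.86- and 8.54-fold with sgMETTL1, against 10.1- and 8.98-fold with sgNS. SLC44A2, a choline transporter-like protein, was listed at 8.13- and 12.8-fold with sgMETTL1, and at 23.1-fold in replicate 1 of sgNS only.

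Sugar carriers and the carriers of the Golgi and endoplasmic reticulum, like most classes and all genes together, had fewer members in both sgMETTL1 lists than in both sgNS lists. Of 11 sugar carriers, 5 were in both sgMETTL1 lists (45.5%, against 67.5% of all genes) and 8 in both sgNS lists (72.7%, against 76.3% of all genes). SLC5A3, which brings in myo-inositol, was listed at 13.1- and 16.9-fold with sgMETTL1, against 15.3- and 12.3-fold with sgNS. SLC2A2, the GLUT2 glucose transporter of hepatocytes, was listed at 9.86- and 6.59-fold with sgMETTL1, against 17.4- and 10.5-fold with sgNS. SLC2A12, a glucose transporter, was missing from replicate 1 of sgMETTL1 and was listed at 22.2-fold in replicate 2, against 23.9- and 27.5-fold with sgNS. The -log10 p of these peaks was 3.79 with sgMETTL1, against 13.5 and 8.82 with sgNS. The inositol transporter SLC2A13 was in replicate 1 of each guide only, at 10.7-fold with sgMETTL1 and 6.37-fold with sgNS. Of the 12 carriers of nucleotide sugars and acetyl-CoA, 7 were in both sgMETTL1 lists (58.3%) and 10 in both sgNS lists (83.3%). SLC33A1, which moves acetyl-CoA into the endoplasmic reticulum, was listed at 23.3- and 33.9-fold with sgMETTL1, against 31- and 25.8-fold with sgNS. SLC35A1, the Golgi carrier of CMP-sialic acid, was listed at 16.6- and 14.2-fold with sgMETTL1, against 15.9- and 23.7-fold with sgNS. At both genes the ranges of the guides overlapped. SLC35B1, an ATP and ADP exchanger of the endoplasmic reticulum, was listed at 4.81- and 3.70-fold with sgMETTL1, against 7.61- and 6.79-fold with sgNS. SLC35G1 was listed at 9.14- and 7.22-fold with sgMETTL1, against 12.7- and 3.65-fold with sgNS.

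Carriers of inorganic ions were in all 4 lists for 9 of 18 genes, a class that by family number includes the scaffold protein SLC9A3R2. SLC9A7, a sodium and proton exchanger of the Golgi, was listed at 36.6- and 19.7-fold with sgMETTL1, against 20.3- and 19.7-fold with sgNS. SLC26A2, a sulfate transporter, was listed at 21.3- and 8.33-fold with sgMETTL1, against 20.8- and 14.8-fold with sgNS. SLC4A3, an anion exchanger, was in replicate 1 of sgMETTL1 only, at 18.3-fold, the highest value of any solute carrier found in 1 list. That peak had a -log10 p of only 2.92, over 61 exon bases. SLC24A5 shares its place with MYEF2 on the opposite strand in all 4 lists, and is uncertain for the reason given for SLC6A6.

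Mitochondrial carriers, the SLC25 family, were in all 4 lists for 8 of 17 genes, and RefSeq names 48 in the family. SLC25A17, which works in peroxisomes, was listed at 11.2- and 10.8-fold with sgMETTL1, against 10.2- and 13.8-fold with sgNS. The mitochondrial carrier SLC25A40 was listed at 36.6- and 6.94-fold with sgMETTL1, against 10.8- and 4.05-fold with sgNS, with 1 value far above the other 3. SLC25A18, a glutamate carrier, was in replicate 2 of sgMETTL1 only, at 9.02-fold. Monocarboxylate carriers had 2 of 6 genes in all 4 lists. SLC16A7, which carries lactate and pyruvate, was listed at 30.5- and 25-fold with sgMETTL1, against 38.2- and 86.6-fold with sgNS. The highest of these values, in replicate 2 of sgNS, was far above the others. SLC16A6 was in 1 sgMETTL1 list, at 10.2-fold, and in both sgNS lists, at 3.36- and 3.62-fold, and SLC16A4 was in replicate 1 of sgMETTL1 alone, at 8.38-fold. The families for bile salts, organic ions and drugs, which liver is known for, had 5 genes listed, of which 2 were in all 4 lists. SLC10A7, of the bile salt carrier family, was listed at 24.4- and 4.51-fold with sgMETTL1, against 18.5- and 6.20-fold with sgNS. Its -log10 p was 4.79 and 3.26 with sgMETTL1, against 13.3 and 10.8 with sgNS. SLCO4C1, an organic anion transporter, was listed at 3.18- and 6.25-fold with sgMETTL1, against 13.9- and 5.49-fold with sgNS, and no site of it was common to the 4 lists. SLC22A23 was in 1 sgMETTL1 list, at 6.86-fold, and both sgNS lists, at 3.82- and 5.49-fold, and SLC22A18 was in 1 sgMETTL1 list, at 2.59-fold. Of the 21 genes that RefSeq names SLC22, which holds the organic cation and anion transporters, 2 were listed, and of the 12 named SLCO, 1.

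**Figure D1:**
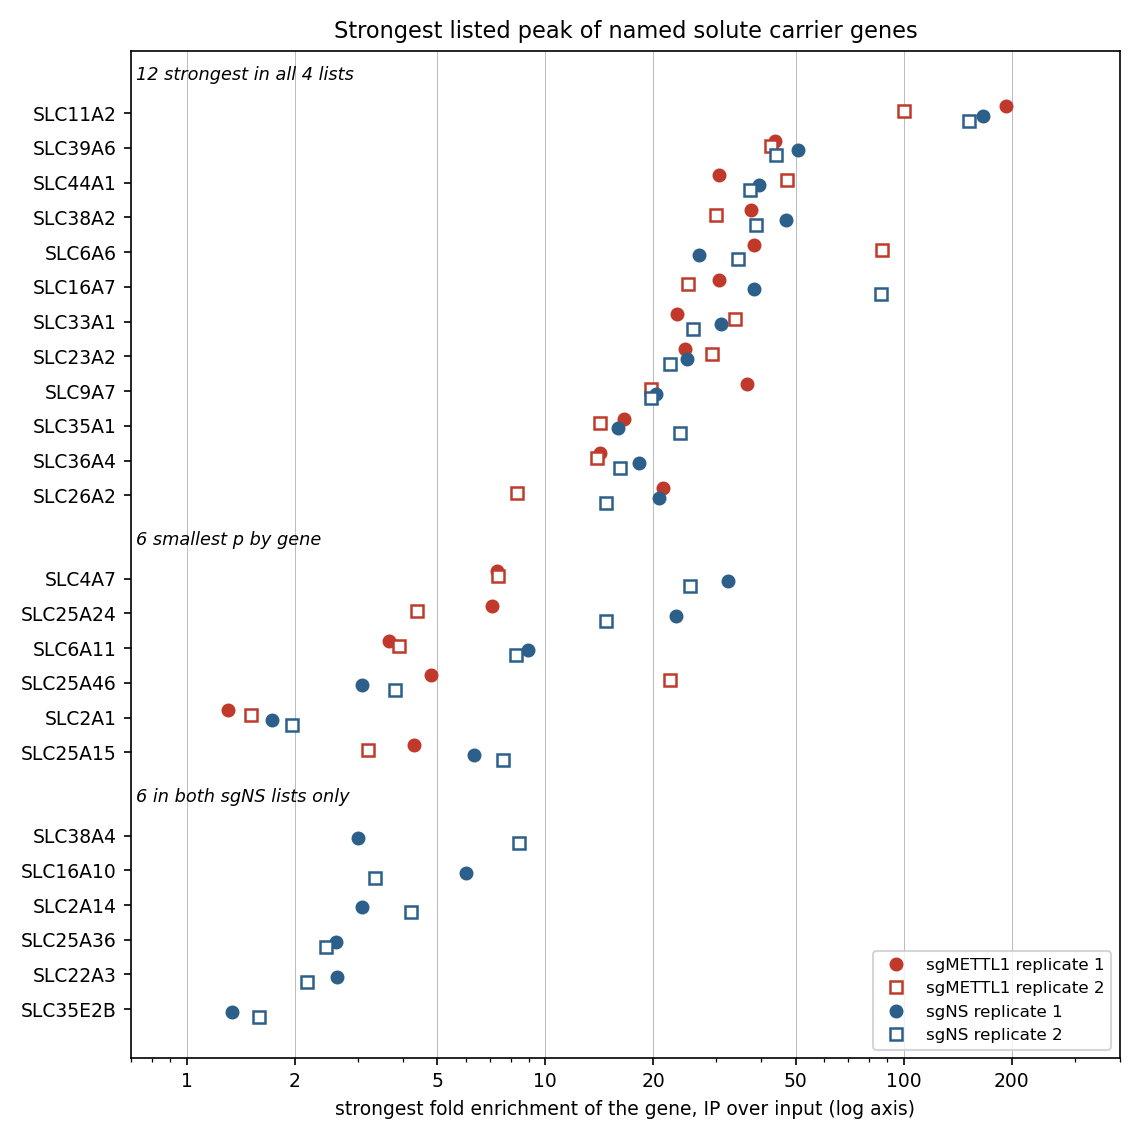
Strongest fold enrichment (IP over input, log axis) of 24 named solute carrier genes in each of the 4 lists, with sgMETTL1 in red and sgNS in blue, circles for replicate 1 and squares for replicate 2. SLC11A2 is at the top with 99.9- to 193-fold, SLC6A6 reaches 87.0-fold and SLC16A7 86.6-fold in 1 list each, and the 6 genes at the bottom have sgNS values only.

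**Figure D2:**
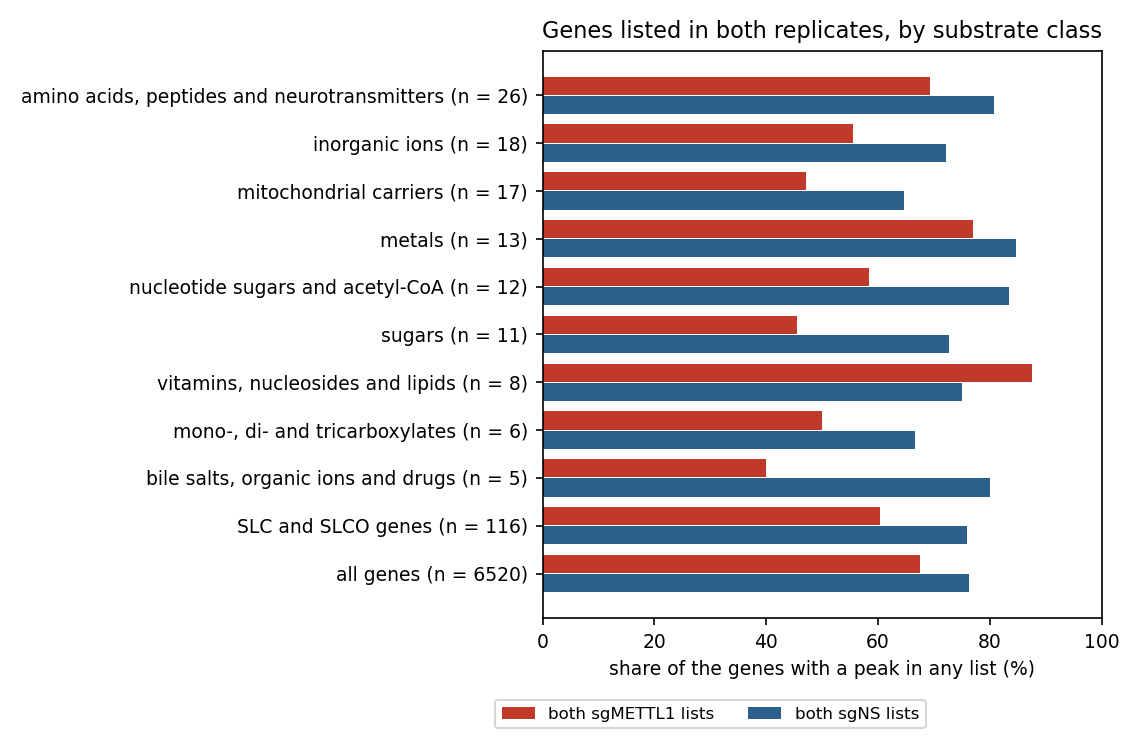
Share of the listed genes (%) that were in both lists of a guide, by substrate class, for sgMETTL1 (red, upper bar) and sgNS (blue, lower bar); n is the number of genes with a peak in any list. The sgNS share is the higher one in every class but the vitamins, nucleosides and lipids, and for all genes it is 76.3%, against 67.5% with sgMETTL1.

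The next question was whether METTL1 knockout changed which solute carrier transcripts were recovered. A gene was called lost when it had a peak in both sgNS lists but in neither of the sgMETTL1 lists, and gained in the reverse case. Of the 116 solute carriers 6 were lost (5.17%, against 4.63% of all listed genes), a share near that background. No solute carrier was gained, against 1.52% of all listed genes. None of the 6 lost genes had a peak above 8.45-fold. SLC38A4, an amino acid carrier of liver, had sgNS folds of 3.01 and 8.45. SLC16A10, which carries aromatic amino acids although its family carries monocarboxylates, had sgNS folds of 6.02 and 3.36. SLC25A36, a mitochondrial carrier of pyrimidine nucleotides, had 2.60 and 2.44, and SLC22A3, an organic cation transporter, had 2.62 and 2.17. The remaining pair have close relatives, with which reads may be shared. SLC2A14, a near copy of the glucose transporter SLC2A3, had sgNS folds of 3.09 and 4.23 from peaks at different sites, and SLC35E2B had 1.34 and 1.59. SLC2A3 itself was in all 4 lists, at 6.81- and 4.88-fold with sgMETTL1, against 6.37- and 6.03-fold with sgNS. A gene that is not listed passed no threshold there, and is not shown to lack binding.

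The strength of binding was then compared for the 66 genes of all 4 lists. Ranks were turned into normal scores, and sgMETTL1 minus sgNS was tested with limma over all 4150 genes of all 4 lists, at an FDR of 5%. No solute carrier was called, nor any of the 4150 genes (0% called), and the smallest adjusted p was 0.325 among solute carriers and 0.221 among all genes. An unadjusted p under 0.05 was reached by 3 of the 66 (4.55%, against 9.83% of all genes). Higher scores stood for 32 and lower scores for 34. The median difference was -0.01 for the solute carriers and -0.02 for all genes. Both sgMETTL1 ranks lay below both sgNS ranks for 17 of the 66 (25.8%, against 22.7% of all genes), and above them for 11 (16.7%, against 20.0%). Without replicate 2 of sgNS the median difference was -0.16 for the solute carriers and -0.02 for all genes.

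The 3 genes with an unadjusted p under 0.05 were all lower with sgMETTL1, and none passed after adjustment. SLC4A7, a sodium bicarbonate cotransporter, was listed at 7.31- and 7.40-fold with sgMETTL1, against 32.4- and 25.4-fold with sgNS. Its score differed by -1.05 (SE 0.187, unadjusted p = 0.00293, adjusted p = 0.325, limma). Its strongest peak was not the same place with the 2 guides, as described below for its sites. SLC25A24, a mitochondrial carrier of ATP-Mg and phosphate, was listed at 7.11- and 4.40-fold with sgMETTL1, against 23.1- and 14.8-fold with sgNS (difference -0.93, SE 0.247, adjusted p = 0.375). SLC6A11, a GABA transporter, was listed at 3.66- and 3.91-fold with sgMETTL1, against 8.93- and 8.26-fold with sgNS (difference -0.67, SE 0.183, adjusted p = 0.380). The guides did not overlap at any of these 3 genes. The next by p were SLC25A46, a protein of the outer mitochondrial membrane, SLC2A1, the GLUT1 glucose transporter, and SLC25A15, the ornithine carrier. SLC25A46 was listed at 4.79- and 22.2-fold with sgMETTL1, against 3.09- and 3.80-fold with sgNS. Its strongest peaks were not at the same place, but at sites 2 and 4 with sgMETTL1 and 3 and 4 with sgNS, by the site numbers explained below. The 22.2-fold peak had a -log10 p of 3.79. SLC2A1 was listed at 1.30- and 1.51-fold with sgMETTL1, against 1.73- and 1.97-fold with sgNS. SLC25A15 was listed at 4.29- and 3.21-fold with sgMETTL1, against 6.33- and 7.62-fold with sgNS.

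The replicates of a guide differed widely at some genes. Between the 2 lists of a guide the higher over the lower strongest fold had a median ratio of 1.33 with sgMETTL1 and 1.23 with sgNS over the 66 genes. It was above 2 for 10 genes with each guide, and reached 5.41 with sgMETTL1 and 3.73 with sgNS. Across the 66 genes Spearman's rho between lists ran from 0.786 to 0.861, and was 0.804 between the sgMETTL1 lists and 0.861 between the sgNS lists. This is across genes, which are not independent replicates, and the lists share the cell line and the peak calling.

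**Figure D3:**
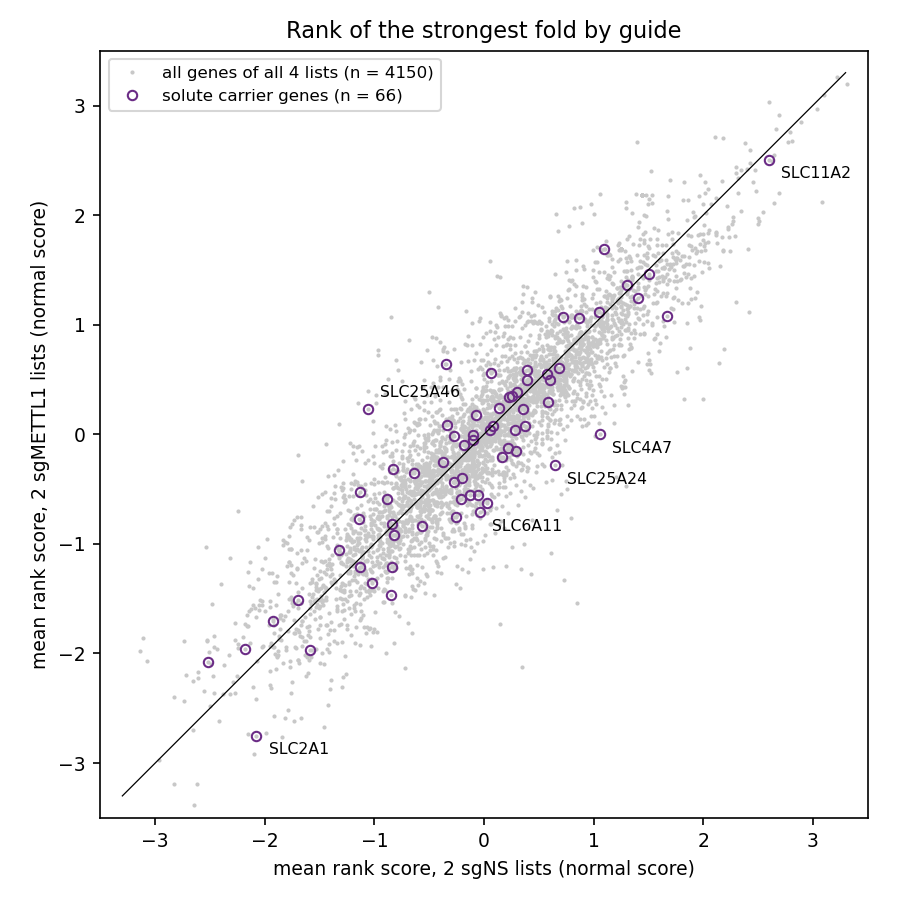
Mean rank score of the strongest fold in the 2 sgMETTL1 lists (vertical axis) against the 2 sgNS lists (horizontal axis), as normal scores, for 4150 genes (grey) and 66 solute carrier genes (purple); the line marks equal scores. The solute carriers follow the line, with SLC4A7, SLC25A24 and SLC6A11 below it and SLC25A46 above it, and none was called.

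A gene can keep a peak while single binding places change, so peaks were joined into sites when they belonged to 1 gene and shared at least 1 exon base on the same strand in any of the lists. Sites were numbered from the 5' end of the gene. The solute carriers had 258 sites, of 14518 in all, and 96 of these were in all 4 lists (37.2%, against 41.3% of all sites). Of the 116 genes 58 had 1 site, and 13 had 5 or more, which together held 91 sites. SLC16A7, SLC9A7 and SLC7A11 had the most, with 10 each, followed by SLC5A3 and SLC4A7 with 8 each.

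The peaks lay mostly near the 3' end and mostly within 1 exon block. The centre of 623 of 738 solute carrier peaks was in the last 10% of the gene's span (84.4%, against 75.2% of all peaks), and 1 peak was in the first 10%. A single block made up 705 of the 738 peaks (95.5%, against 90.7%), and 3 or more blocks were joined by 0.949%, against 4.29%. The peaks of at least 3 blocks belonged to SLC38A1 and SLC4A9, a bicarbonate transporter. In SLC38A1 they spanned exons in the middle of the gene on chromosome 12 (46229247 to 46243276 with sgNS), at 2.80- and 2.35-fold with sgMETTL1, against 3.09- and 3.09-fold with sgNS. The strongest SLC38A1 peak was elsewhere, at the 3' end. The peaks had a median of 269 exon bases, against 268 for all peaks. The share of exon bases that fall in the last 10% of a span was not computed, so these shares describe the peaks and show no preference.

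At the level of sites the solute carriers lost places mostly where enrichment was weak. A site was called lost or gained by the same rule as a gene. Lost sites numbered 35 of 258 (13.6%, against 7.42% of all sites), in 26 genes, and 1 site was gained, in SLC12A2 (against 1.21% of all sites). The sites of a gene share its transcript and are not independent, and no test of this difference was made. Of the 26 genes 21 were still in an sgMETTL1 list through another site, and 18 in both. The lost sites had sgNS folds from 1.27 to 32.4, and 30 of the 35 were under 5-fold in both sgNS lists. Their median percentile by p within a list was 67.5 and 70.1, where 0 is the smallest p, against 68.2 and 72.5 for all lost sites. Only 3 had a -log10 p of at least 10 in both sgNS lists: the site of SLC22A3, site 4 of SLC7A1 and site 1 of SLC7A5. None joined more than 1 exon block.

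Lost sites made up 5 of 58 in genes of 1 site (8.62%, against 5.94% for all such genes), 12 of 109 in genes of 2 to 4 sites (11%, against 7.72%) and 18 of 91 in genes of 5 or more (19.8%, against 7.97%). The last group is 13 genes, whose sites share few transcripts. The sgNS lists were longer and had smaller p-values, as given above, and p moved with the guide at the sites that stayed. It was weaker in both sgMETTL1 lists for 74 of the 96 solute carrier sites of all 4 lists (77.1%, against 76.2% of all such sites). Whether list length or p caused the lost shares was not tested. With every list limited to its 9388 peaks of smallest p, 23 of 233 sites were lost (9.87%, against 5.68%) and 2 gained (against 1.93%). With a fold of 2 times the list's minimum or more, 23 of 198 were lost (11.6%, against 6.13%) and 2 gained (against 1.37%). With 50% reciprocal overlap, 34 of 360 were lost (9.44%, against 6.75%) and 7 gained (against 2.80%). With the lists limited to their 4694 peaks of smallest p, 1 of 86 was lost, site 10 of SLC7A11 (1.16%, against 5.19% of all sites), and 3 were gained (against 3.10%), in SLC35F2, SLC38A9 and SLC6A4. At that strictest limit the lost share was below that of all sites.

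**Figure D4:**
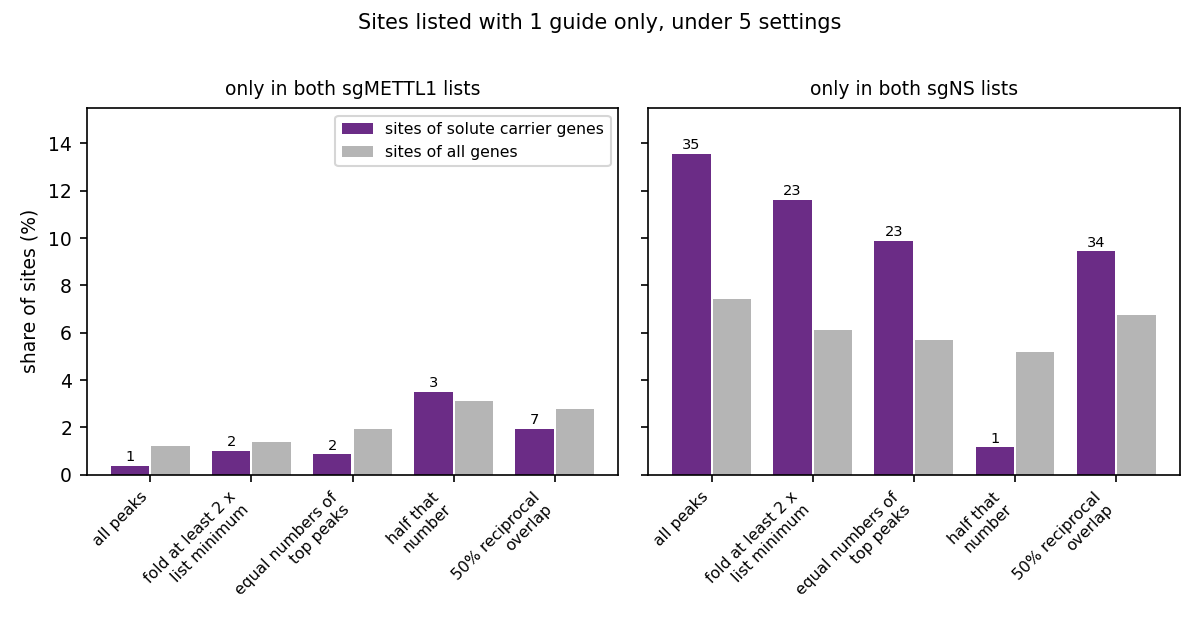
Share of sites (%) held by both lists of 1 guide and neither list of the other, for sgMETTL1 (left) and sgNS (right), with solute carrier genes in purple and all genes in grey; the number of solute carrier sites stands on each bar. On the right the purple bar is above the grey one under 4 settings and below it when only the top 4694 peaks per list are used.

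The single places that changed most can be read site by site. SLC4A7 had 8 sites over its last bases on the minus strand of chromosome 3. Site 8, 298 bases from the 3' end (27373021 to 27373350), was in neither sgMETTL1 list, and was listed at 32.4- and 25.4-fold with sgNS, the only lost site of a solute carrier at 10-fold or more in both sgNS lists. Its -log10 p was 6.27 and 7.99, a modest value for so high a fold. Site 3 held the strongest sgMETTL1 peak, and was listed at 7.31- and 7.40-fold with sgMETTL1, against 4.99- and 6.53-fold with sgNS. Site 2 was listed at 7.24- and 7.36-fold with sgMETTL1, against 8.29- and 9.33-fold with sgNS. Site 8 aside, the highest SLC4A7 folds were 7.31 and 7.40 with sgMETTL1, against 8.29 and 9.33 with sgNS. More widely, the strongest peak was at 1 site in all 4 lists for 54 of the 66 genes. The other 12 included SLC9A7, SLC36A4, SLC5A3 and SLC25A46.

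SLC7A11 had 10 sites over its last stretch on the minus strand of chromosome 4. The strongest, site 7 (138165922 to 138166401), was listed at 3.24- and 3.28-fold with sgMETTL1, against 4.87- and 3.69-fold with sgNS. Site 10, 117 bases from the 3' end (138164214 to 138164483), was listed at 1.60- and 1.5-fold with sgMETTL1, against 3.25- and 2.63-fold with sgNS. Its -log10 p was 3.44 and 3.35 with sgMETTL1, against 70.7 and 58.1 with sgNS, while site 7 had 45.7 and 52.3 with sgMETTL1, against 327 and 220 with sgNS. Sites 3, 8 and 9 were lost, all under 2-fold with sgNS.

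The remaining genes with many sites showed no common direction. SLC16A7 had its strongest peak at site 6 in 3 lists and at 25-fold at sites 1, 4 and 6 in replicate 2 of sgMETTL1. Site 6 was listed at 30.5- and 25-fold with sgMETTL1, against 38.2- and 86.6-fold with sgNS, and site 2, at 3.60- and 8.45-fold with sgNS, was lost. SLC9A7 had high folds at 2 places, site 6 and site 10. Site 10 was listed at 36.6- and 19.7-fold with sgMETTL1, against 20.3- and 17.9-fold with sgNS, and site 6 at 36.6- and 6.48-fold with sgMETTL1, against 14.8- and 19.7-fold with sgNS. Its sites 7 and 8, at 2.46- to 3.06-fold with sgNS, were lost. SLC5A3 had no lost site. Its sites 3 and 8 were in all 4 lists, and site 8 was listed at 13.1- and 10.8-fold with sgMETTL1, against 10.1- and 8.29-fold with sgNS.

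**Figure D5:**
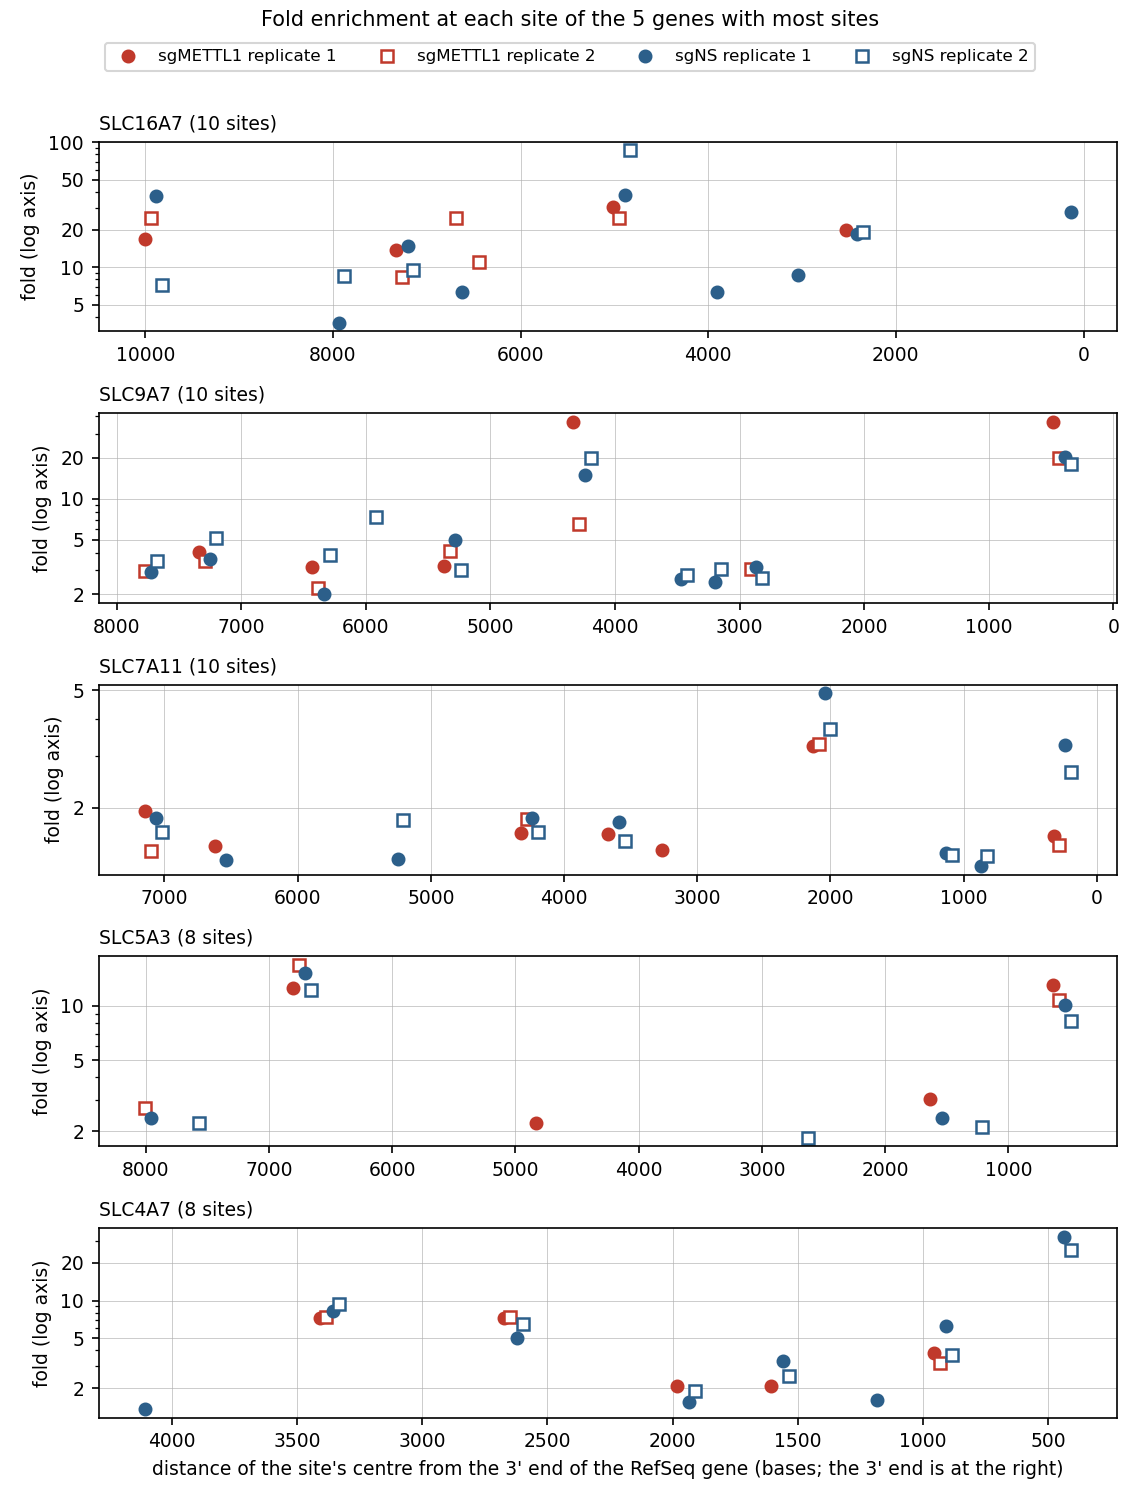
Fold enrichment (log axis) at each site of the 5 solute carrier genes with most sites, against the distance in bases of the site's centre from the RefSeq 3' end, which is at the right; sgMETTL1 is red and sgNS blue, circles are replicate 1 and squares replicate 2, and points are shifted slightly sideways so that they can be told apart. The site of SLC4A7 nearest the 3' end has sgNS points only, at 32.4- and 25.4-fold, and the last site of SLC7A11 has both sgMETTL1 points below both sgNS points.

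Site folds of the 96 sites of all 4 lists were compared in the same way over 6003 sites. No solute carrier site was called, nor any of the 6003 (0% called), and the smallest adjusted p was 0.396 among solute carrier sites and 0.333 among all sites (limma). An unadjusted p under 0.05 was reached by 7 (7.29%, against 10.5% of all sites), of which 5 were lower and 2 higher with sgMETTL1. Site 10 of SLC7A11 came first (difference -1.11, SE 0.199, adjusted p = 0.396). Site 1 of SLC7A2, a carrier of cationic amino acids, followed at 1.65- and 1.56-fold with sgMETTL1, against 2.60- and 2.58-fold with sgNS. Then came site 2 of SLC6A11 and site 2 of SLC25A24, whose folds are those of the genes given above. SLC25A13, the aspartate and glutamate carrier citrin, was lower at site 1, at 1.84- and 1.70-fold with sgMETTL1, against 2.81- and 2.43-fold with sgNS. Site 2 of SLC25A46 was higher, at 4.79- and 2.90-fold with sgMETTL1, against 2.65- and 2.26-fold with sgNS. Both sgMETTL1 ranks lay below both sgNS ranks at 23 of the 96 sites (24%, against 23.7% of all sites), and above them at 15 (15.6%, against 20.3%). Sites that stayed were also shorter with sgMETTL1: the median ratio of exon bases, sgMETTL1 over sgNS, was 0.789 for solute carrier sites and 0.850 for all sites.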

How the data were processed

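Input and Flag IP RNA of HepG2 cells was sequenced, with 2 replicates of each per guide. STAR and the build GRCh38 are listed, per the submitters' processing notes, with no further setting. The name of the peak caller is not given in the sources used here, nor its threshold or how folds were scaled. Per the labels, each IP and input pair has its own peak list, with replicates not pooled. The authors' fold of a peak is a ratio of IP over input. The p-value of a peak, and the logarithms of p and FDR, handled here as a score, are also as deposited by the authors.

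Each list was tied to its samples through their titles and descriptions. Folds were ranked within a list and turned into normal scores, which were compared with limma 3.58.1 in R 4.3.3 (two-sided, Benjamini-Hochberg over all genes or sites of all 4 lists). The tables were made with Python 3.11.15, pandas 2.3.3, numpy 2.4.6 and scipy 1.17.1, and figures with matplotlib 3.10.9. The joining of sites, and the limma fit, were each tested on simulated data. RefSeq gene spans and symbols were those of GRCh38.p14, and coordinates are 1-based. Sequence is not shown, since no genome was used here. Substrate classes follow the family number. Alternatives were stricter peak limits, other overlap rules, log2 folds, the mean of a gene's peaks, the replicate number as a block, and leaving out each list. No paired fit was used as the main one: the deviations of same-numbered lists from their guide means correlated at -0.00153. This value cannot show whether the lists were prepared as pairs.

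The genes and lists were chosen with earlier results of these data known. Genes were named by rule: the 12 strongest of all 4 lists, lost and gained genes, the 6 genes and 4 sites of smallest p, up to 4 per class by rank, the 5 with most sites, and genes sharing a place with another. Other genes in the text (among them SLC38A9, SLC35F2, SLC6A4, SLC4A9, SLC7A1, SLC7A5, SLC40A1, SLC2A3, SLC12A2 and SLC25A13) were chosen after their values were seen. Some results are not reported here.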

Additional observations from a re-analysis of the deposited data

How the results depend on the processing

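The number of called genes and sites was 0 under every alternative run, with the smallest adjusted p of a solute carrier between 0.226 and 0.591. With the replicate block it was 0 of 66 genes and 0 of 96 sites, at smallest adjusted p of 0.473 and 0.484 (limma). An unadjusted p under 0.05 was then reached by 6 genes (against 380 of all 4150) and 8 sites (against 595 of all 6003). The replicate numbers alone do not say whether lists were prepared as pairs, and nothing was called with or without the block.

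Counts of genes and sites held with 1 guide only depended on the peak limit and the overlap rule. Lost genes, 6 as reported, were 0 among the top 4694 peaks per list (0%, against 3.35% of all genes), 26 when peaks had to overlap in place of names (22.4%, against 14.6%), and 9 to 14 when 1 list was left out (8.26 to 12.6%, against 8.16 to 10.2%). Gained genes, 0 as reported, were 1 with a fold limit of 2 times a list's minimum (0.917%, against 1.55% of all genes). They were 1 with equal numbers of top peaks (0.926%, against 2.52%) and 3 among the top 4694 (5.26%, against 3.38%). With peak overlap in place of names 1 was gained (0.862%, against 2.55%). When 1 list was left out, 1 to 5 genes were gained, each time a smaller share than that of all genes. Lost sites, 35 as reported, were 23 with the fold limit, 23 with equal numbers, 1 among the top 4694, and 48 to 64 when 1 list was left out (56 without sgMETTL1 replicate 1, 23% against 14.1% of all sites; 48 without sgMETTL1 replicate 2, 19.4% against 12%; 54 without sgNS replicate 1, 23.6% against 18%; 64 without sgNS replicate 2, 26.8% against 20.9%). Gained sites, 1 as reported, were 2 with the fold limit (1.01%, against 1.37% of all sites) and 2 with equal numbers (0.858%, against 1.93%). They were 3 among the top 4694 (3.49%, against 3.10%) and 7 with 50% reciprocal overlap (1.94%, against 2.80%). When 1 list was left out, 3 to 16 sites were gained (1.26 to 6.45%, against 2.35 to 8.49%). Leaving out a list loosens the rule for that guide to 1 list, which raises these counts by construction.

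The median difference of the solute carriers, -0.01 in score, was -0.21 on log2 folds, where that of all genes was -0.24, and ran from -0.16, without sgNS replicate 2 (all genes -0.02), to 0.0104, without sgMETTL1 replicate 1 (all genes -0.02). The score difference of SLC4A7, -1.05 as reported, was 0.11 when the mean of all its peaks replaced the strongest (adjusted p = 0.892, limma). That value is in rank score, and it does not show a higher plain mean of the folds with sgMETTL1. Site 8, at 32.4- and 25.4-fold, enters that mean in the sgNS lists only, and raises it there. Weaker sites also enter unequally. Sites 1 and 6, at 1.36- and 1.60-fold, were in replicate 1 of sgNS only. Sites 4 and 5 were in both sgNS lists and missing from replicate 2 of sgMETTL1. How far each site moves the mean was not computed. Read depth is unknown here, so what it limits could not be computed.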

Other observations

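Some transporters stood in the lists under names from before they joined the solute carrier nomenclature, and the choice by name missed them. RefSeq gives SLC symbols to 9 such genes: MFSD14A, MFSD14B, MFSD4A, MFSD4B, MFSD7, MFSD9, PQLC3, TMCO3 and TMEM241. Of these, 5 were in all 4 lists. MFSD4A, now SLC60A1, was the strongest of them at 11.4- and 33.3-fold with sgMETTL1, against 27.8- and 21.1-fold with sgNS, values that would place it among the stronger solute carriers. PQLC3, now SLC66A3, was listed at 15.2- and 8.88-fold with sgMETTL1, against 4.94- and 8.45-fold with sgNS, with both sgMETTL1 values above both sgNS values. So were those of MFSD14B, at 6.10- and 6.35-fold, against 2.80- and 3.91-fold. TMCO3 went the other way, at 2.94- and 2.72-fold, against 2.96- and 3.71-fold. By rank, 20.0% of all genes of all 4 lists were stronger in both sgMETTL1 lists, and 22.7% weaker. MFSD4B was in no sgMETTL1 list and at 2.89- and 5.92-fold with sgNS, as 4.63% of all listed genes were lost.

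The 1 solute carrier peak in the first 10% of a gene's span belonged to SLC29A4, a monoamine and nucleoside transporter. It was in replicate 1 of sgNS only, at 4.30-fold, and joined 2 exon blocks. The other site of SLC29A4, 85.5% of the way through the gene, was listed at 4.21- and 5.55-fold with sgMETTL1, against 6.96- and 6.45-fold with sgNS.

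Whole families had no listed member: none of the 6 genes named SLC27, the fatty acid transporters of liver among them, none of 5 named SLC13 and none of 4 named SLC8.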
